A study of Mus musculus with 32 samples.

Results

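The neurofilament genes Nefl, Nefm, Nefh and Ina and the related gene Prph were followed across the spinal cord RNA of 32 mice. They were listed by name, by a rule that uses no measured value, but with earlier results of these data known. They make up 5 of the 42524 genes of the count table. All 5 were found in it and passed the filter on low counts in every fit. The mice fell into 8 groups of 4: wild type (WT) mice, untreated or given OKN-007, and G93A mice, untreated or given OKN-007, each labelled 90 or 155 days. G93A mice, strain B6-Tg(SOD1-G93A)1Gur/J, carry many copies of a human SOD1 transgene with the G93A mutation under its own human promoter, a model of amyotrophic lateral sclerosis (ALS) in which motor neurons degenerate, and the WT mice were C57BL/6J littermates. OKN-007 is a nitrone compound. The study's text says that its experimental mice were predominantly female, names male mice in other assays and used only females at its higher dose. It does not state which segment of spinal cord gave the RNA. The labels describe these times as days, the design text as periods of treatment, and the study's text gives a slightly older age for the earlier mice. The labels name no dose. In the study's text, the cohorts killed near these ages were given the higher of its doses. The number of transgene copies of each mouse is not given in the sources used here.

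Neurofilaments are the intermediate filaments of neurons. They fill large myelinated axons and set their calibre, and they are most abundant in motor neurons and other cells with long axons. Nefl, Nefm and Nefh encode the light, medium and heavy subunits, of which the light chain is the core and the heavier chains carry long tails whose lysine-serine-proline repeats are phosphorylated in the axon. Ina encodes alpha-internexin, the subunit best known from small axons of the central nervous system. Prph encodes peripherin, found in spinal motor neurons and in sensory and autonomic neurons of the peripheral nervous system. Accumulated neurofilament is a hallmark of affected motor neurons in ALS, and neurofilament protein in blood and cerebrospinal fluid is used as a measure of axonal damage.

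On GRCm38 with the GENCODE M21 annotation, Nefl (ENSMUSG00000022055) lies on chr14:68083863-68089095 on the plus strand with 4 exons. Nefm (ENSMUSG00000022054) lies beside it on the minus strand, chr14:68082590-68124846, with up to 4 exons. Nefh (ENSMUSG00000020396) occupies chr11:4938754-4948064 on the minus strand, Ina (ENSMUSG00000034336) chr19:47014698-47025327 and Prph (ENSMUSG00000023484) chr15:99055174-99058978, both on the plus strand. The last exon of a longer Nefm transcript runs antisense over the first exon of Nefl and shares 1108 bases with it, at chr14:68083863-68084970. These bases are 32.8% of the exonic length of Nefl and 19.2% of that of Nefm. The library kit keeps the strand, but the strand setting of the counting is not given in the sources used here, so the counts of Nefl and Nefm in relation to each other are uncertain.

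The members share a coiled rod domain that ends in a stretch conserved across intermediate filaments. It is shown here because it is the part the members have in common. The coding bases of that stretch in the annotated transcripts, with capitals for bases that differ from Nefl, were:
Nefl: tacagaaaactcttggaaggcgaagag
Nefm: tacagGaaactcCtAgaGggGgaagag
Nefh: tacagaaaGctcCtggaaggcgaagag
Ina: tacagGaaGctcCtggaaggTgaagag
Prph: tacagGaaGctACtggaaggGgaGgag
All 9 codons of the stretch specify the same amino acids in the 5 genes. Of its 27 bases, Nefh shared 25 with Nefl, Ina 23, Nefm 22 and Prph 21. The tails differ far more. The coding sequences run to 543 codons in Nefl, 848 in Nefm, 1090 in Nefh, 501 in Ina and 507 in Prph. They hold 51 lysine-serine-proline triplets in Nefh, 4 in Nefm and 0 in each of Nefl, Ina and Prph. A stretch of the Nefh tail, codons 517 to 566, is shown because it sets the heavy subunit apart from the others. Capitals mark its 8 triplets:
Nefh tail: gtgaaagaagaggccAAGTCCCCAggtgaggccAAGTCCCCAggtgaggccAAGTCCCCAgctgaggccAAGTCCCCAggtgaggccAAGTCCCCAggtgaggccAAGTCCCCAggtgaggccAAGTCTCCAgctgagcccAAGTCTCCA

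Promoters of Prph and Ina were read from RefSeq (GRCm38.p6), 250 bases before each start on the plus strand. The promoter set used held no entry for Nefl, Nefm or Nefh, so only these are shown. No link between the promoters and the levels was tested. Capitals mark the motifs TATAAA, searched on the gene's strand, and the GC box, GGGCGG or CCGCCC:
Prph promoter, chr15:99054924-99055173: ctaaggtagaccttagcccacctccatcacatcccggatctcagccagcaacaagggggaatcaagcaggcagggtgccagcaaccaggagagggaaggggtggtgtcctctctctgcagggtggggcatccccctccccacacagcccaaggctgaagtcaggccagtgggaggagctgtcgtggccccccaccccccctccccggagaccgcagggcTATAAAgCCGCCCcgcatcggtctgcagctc
Ina promoter, chr19:47014431-47014680: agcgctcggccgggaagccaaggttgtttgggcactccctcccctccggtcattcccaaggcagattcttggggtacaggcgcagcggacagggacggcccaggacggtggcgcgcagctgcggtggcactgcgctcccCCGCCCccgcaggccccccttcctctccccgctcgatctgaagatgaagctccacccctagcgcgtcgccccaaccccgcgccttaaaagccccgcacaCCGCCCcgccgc
The Prph window held TATAAA at position -31 and a GC box at -24 from the start, and the Ina window GC boxes at -111 and -12. Among 32851 promoter windows of the same length, 7.59% held TATAAA and 32.7% a GC box. GC content was 65.2% for Prph and 70.8% for Ina, against a median of 52.4% over all windows.

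The libraries held from 19701722 to 30138257 counts, the median being 26658755. Levels are given as CPM, the usual scaling of counts to library size, with edgeR's TMM factors over the 32 mice. Identical libraries were not found. Nefm ranked between 6 and 35 among all genes by CPM, Nefl between 11 and 56 and Nefh between 15 and 97. Ina lay far below, at best at rank 331, and Prph at best near rank 1055.5. The 5 members together took 1.22% ± 0.127 of the counts of WT untreated mice at 155 days and 0.570% ± 0.113 in G93A untreated mice (SD, n = 4 each).

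Levels of different genes were compared per kilobase of the principal transcript, and the order was then Nefm, Nefl, Nefh, Ina and Prph. In WT untreated mice at 155 days these levels were 1519 ± 229.6, 1177 ± 107, 692 ± 86.1, 117 ± 4.12 and 66.5 ± 6.59 CPM per kilobase (SD, n = 4). On this scale, within a mouse, Nefm stood above Nefl, Nefl above Nefh and Nefh above Ina in 32 of 32 mice, and Ina stood above Prph in 31 of 32. Between mice of a group, the ranges of Nefm and Nefl overlapped in 5 of 8 groups, those of Nefl and Nefh in 1, and those of Nefh and Ina in 0. Ina and Prph overlapped in 4 of 8 groups, those of 90 days. The place of Nefm depended on the length used. Divided by all of its annotated exons (5.782 kilobases), a choice made after seeing the data, Nefm measured 876 ± 132 CPM per kilobase in the same WT mice and lay below Nefl in 32 of 32 mice and above Nefh in 32 of 32. The order of Nefm and Nefl is therefore not settled here.

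**Figure D1:**
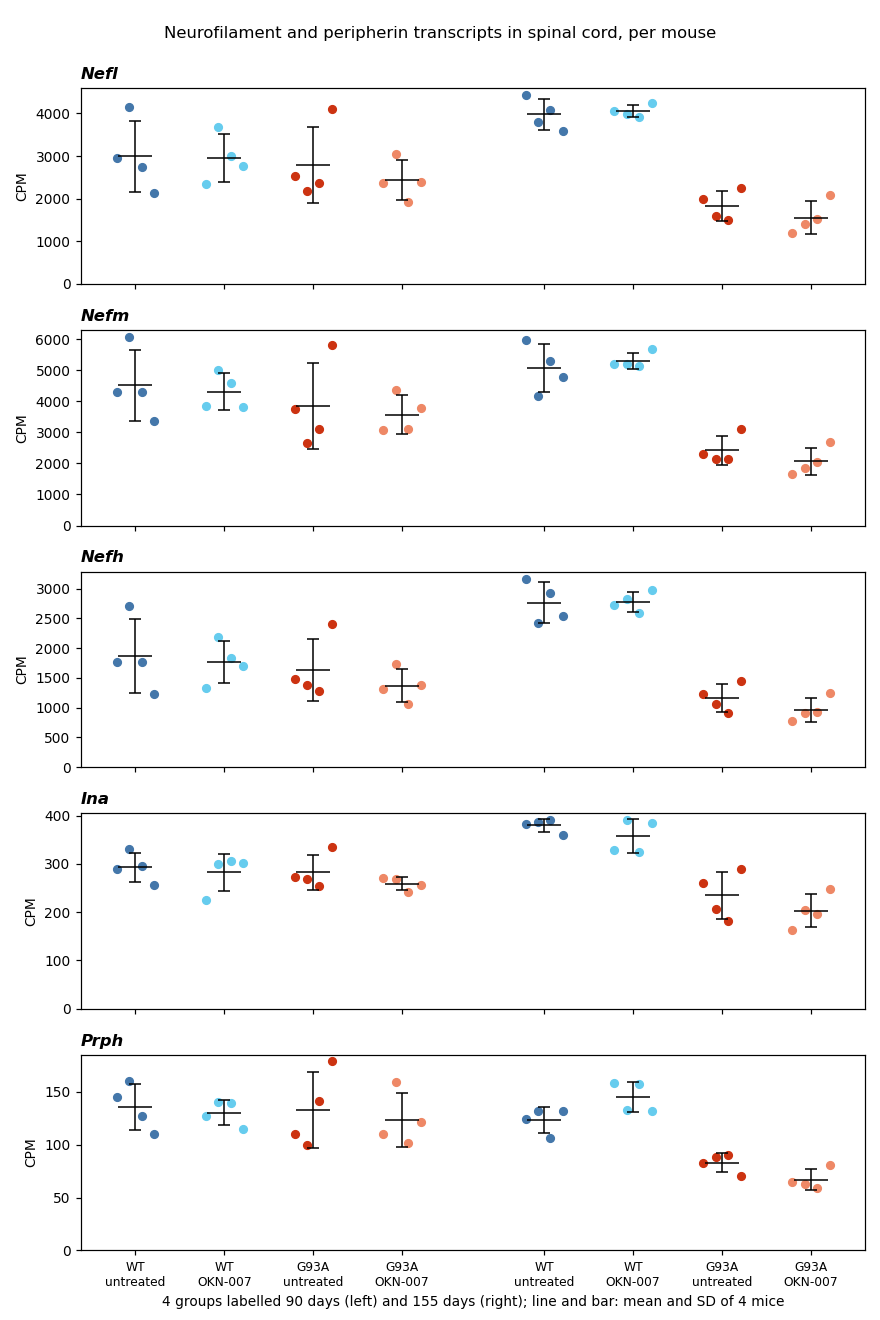
Level of each member in every mouse (y axis, CPM, starting at 0) for the 4 groups labelled 90 days and the 4 labelled 155 days (x axis); points are mice and the line and bar the mean and SD of 4 mice. At 155 days all 8 G93A mice lie below all 8 WT mice for each of the 5 members, while at 90 days the groups overlap.

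The first question was whether the members differ between G93A and WT mice late in the disease. At 155 days all 5 were lower in untreated G93A mice than in untreated WT mice, with the largest estimates for Nefh, Nefl and Nefm and smaller ones for Ina and Prph. The changes were -57.5% for Nefh, -53.5% for Nefl, -51.7% for Nefm, -37.5% for Ina and -32.3% for Prph. Nefl, the core subunit, measured 4424, 3802, 4087 and 3594 CPM in the 4 WT mice and 1985, 1592, 1499 and 2245 CPM in the 4 G93A mice. Nefm, the medium subunit, measured 5985, 4179, 5293 and 4795 CPM in WT against 2299, 2155, 2127 and 3109 CPM in G93A mice. Nefh, the heavy subunit, measured 3166, 2425, 2924 and 2534 CPM in WT against 1223, 1062, 915 and 1452 CPM in G93A mice. In each of these genes the lowest WT mouse stood above the highest G93A mouse. Ina measured 383, 386, 391 and 361 CPM in WT mice and 260.0, 207, 182 and 290.3 CPM in G93A mice. Prph, the lowest of the members, measured 125, 132, 106 and 132 CPM in WT mice and 83.0, 88.1, 90.5 and 70.6 CPM in G93A mice. Here too the groups did not overlap.

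In edgeR's quasi-likelihood test, with Benjamini-Hochberg adjustment over 18675 genes, Nefh fell by 1.23 on the log2 scale (SE 0.14, adjusted p = 1.35e-06). Nefl fell by 1.10 (SE 0.14, adjusted p = 5.59e-06) and Nefm by 1.05 (SE 0.14, adjusted p = 1.05e-05). Ina fell by 0.68 (SE 0.13, adjusted p = 0.000411) and Prph by 0.56 (SE 0.10, adjusted p = 0.000309). Of all genes tested, 18.2% were called lower in this comparison, and 15.4% were lower in G93A mice without overlap of the groups, beside 5 of 5 members for each. The members were chosen with earlier results known, so such shares are given for scale only.

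In treated mice all 5 were lower as well, with a larger estimate for Prph than for Ina. Among mice given OKN-007 at 155 days, Nefh fell by 1.49 (SE 0.14), Nefl by 1.35 (SE 0.14), Nefm by 1.33 (SE 0.14), Prph by 1.08 (SE 0.11) and Ina by 0.78 (SE 0.13) between WT and G93A mice on the log2 scale. The largest of the 5 adjusted p was 9.34e-05, for Ina (edgeR). Nefh measured 2720, 2822, 2587 and 2972 CPM in the WT mice and 768, 904, 931 and 1253 CPM in the G93A mice. For Prph the values were 159, 133, 157 and 132 CPM in WT and 64.8, 62.7, 58.7 and 81.2 CPM in G93A mice. All 5 members were called lower with no overlap of the groups. Of all genes tested, 18.2% were called lower in this comparison and 21.9% lay lower without overlap.

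In whole spinal cord, fewer cells of a type, less RNA per cell and a larger share of RNA from other cells cannot be told apart. Marker lists moved with the members. The summed level of 10 pan-neuronal markers was 7215 to 7527 CPM in WT untreated and 4572 to 5814 CPM in G93A untreated mice at 155 days, and 9 of the 10 fell. That of 11 motor neuron markers was 328 to 382 CPM in WT and 179 to 236 CPM in G93A mice, and 9 of the 11 fell. Microglia markers rose in 8 of 8 genes, from 318 to 391 CPM in sum to 1367 to 2432 CPM, and astrocyte markers in 7 of 8, from 4658 to 5173 CPM to 13747 to 17274 CPM. Oligodendrocyte markers reached 21176 to 23185 CPM in WT and 20701 to 24967 CPM in G93A mice, and 1 of 6 rose. In treated mice motor neuron markers fell in 11 of 11 genes, with a median of -1.16, from 352 to 369.9 CPM in sum to 155 to 217 CPM, and pan-neuronal markers in 9 of 10, with a median of -0.55. Microglia markers rose there in 8 of 8 genes and astrocyte markers in 6 of 8. The part of these lists in the result was not tested.

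Genes that mark position along the cord were also lower on average in G93A mice at 155 days. Whether the segment sampled differed was not tested. The mean log2 CPM of 6 caudal Hox genes, which mark lower segments, was 2.37 to 4.05 in WT untreated and -1.99 to 2.63 in G93A untreated mice at 155 days. In treated mice it was 3.71 to 4.05 in WT and -0.82 to 2.70 in G93A mice, without overlap, and 5 of the 6 genes were called lower in G93A mice, against 2 of 6 in untreated mice. With this score as a covariate, Nefh changed by -1.17, Nefl by -1.02, Nefm by -0.92, Ina by -0.60 and Prph by -0.60 on the log2 scale, and all 5 stayed past the threshold. Without the mice whose score was under 0 (2 of the 4 untreated and 1 of the 4 treated G93A mice at 155 days), the changes in untreated mice were -1.20, -1.07, -0.93, -0.67 and -0.61 for the same genes. They also stayed past the threshold. In treated mice the changes were -1.44 for Nefh, -1.28 for Nefl, -1.21 for Nefm, -1.11 for Prph and -0.71 for Ina with the covariate. All 5 stayed past the threshold in both settings. The score did not overlap between treated genotypes in either setting, so neither can tell score and genotype apart there. In untreated mice the overlap rested on G93A mouse 12 (2.63) standing above WT mouse 1 (2.37). Without the scores under 0, only G93A mice 11 and 12 were left in that group. Score and genotype can hardly be told apart there either.

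Peripheral tissue was checked because Prph and the large subunits are strong in sensory neurons and because roots can stay on a dissected cord. Of 10 sensory neuron markers, Scn10a, Scn11a, Trpv1, Mrgprd and Tmem45b were too low to be tested, with at most 0.579 CPM in any of the 32 mice, and 1 of them had no count in any WT untreated mouse at 155 days (Mrgprd). The summed list was 19.1 to 23.9 CPM in these WT mice and 11.8 to 15.7 CPM in the G93A mice, with Pirt and Pou4f1 lower and Avil higher. The 8 Schwann cell markers summed to 137 to 149 CPM in WT and 169 to 198 CPM in G93A mice, and Egr2, Pmp22 and Drp2 rose. The part of these cells in the result was not tested. At 90 days 1 WT untreated mouse had a Schwann cell sum of 1894 CPM, and 1 G93A untreated mouse had a sum of 474 CPM.

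**Figure D2:**
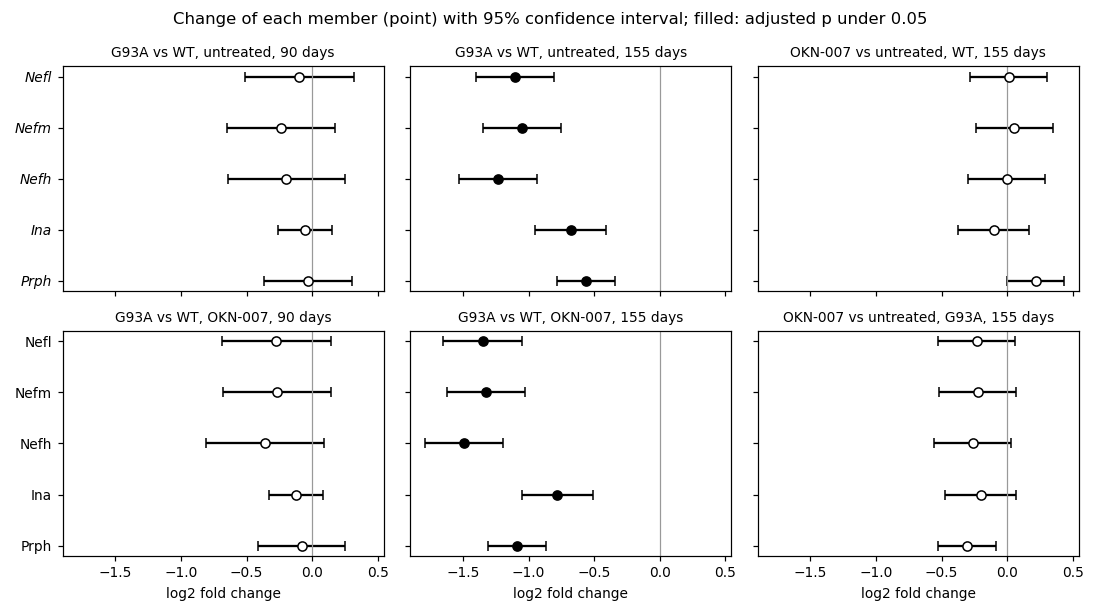
Log2 fold change of each member (x axis) with its 95% confidence interval, in 6 comparisons; filled points passed an adjusted p of 0.05 in edgeR's quasi-likelihood test. All intervals of G93A against WT at 155 days lie below 0, from -1.79 at the lowest, while at 90 days and for OKN-007 no member passed.

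At 90 days no difference between genotypes passed the test. Nefl measured 2943, 4141, 2745 and 2142 CPM in the WT untreated mice and 2541, 2172, 2359 and 4111 CPM in the G93A untreated mice. Each group held a single high mouse, and the groups overlapped for all 5 members. The log2 fold changes were -0.10 (95% interval -0.51 to 0.32) for Nefl, -0.24 (-0.65 to 0.17) for Nefm, -0.20 (-0.64 to 0.25) for Nefh, -0.05 (-0.26 to 0.15) for Ina and -0.03 (-0.37 to 0.30) for Prph. In mice given OKN-007 they were -0.27, -0.27, -0.36, -0.12 and -0.08 in the same order. edgeR called 0 of 5 members in both comparisons, DESeq2 likewise 0, and 0 had an unadjusted p under 0.05. Of the 18899 genes tested edgeR called 0, which is 0% in both comparisons, with 1126 and 747 at an unadjusted p under 0.05, while DESeq2 called 16 and 3. None of these intervals at 90 days reached the fall estimated for the same gene at 155 days.

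The change with genotype was larger at 155 than at 90 days. Fitted over all 32 mice, the difference between the ages in untreated mice was -1.05 (SE 0.28, adjusted p = 0.00781) for Nefh, -1.02 (SE 0.27, adjusted p = 0.00654) for Nefl, -0.83 (SE 0.27, adjusted p = 0.0250) for Nefm and -0.64 (SE 0.18, adjusted p = 0.00824) for Ina by edgeR. Prph, at -0.55 (SE 0.21), missed the threshold with an adjusted p of 0.0615 and passed it under DESeq2. In mice given OKN-007 all 5 passed, with -1.16 for Nefh, -1.11 for Nefl, -1.09 for Nefm, -1.04 for Prph and -0.69 for Ina. These calls stood against 8.34% of genes called lower in untreated and 9.97% in treated mice. Without the mice of a caudal Hox score under 0, the count fell from 4 to 0 members in untreated and from 5 to 1 in treated mice. All values stayed below 0. This setting also dropped WT untreated mouse 3, WT OKN-007 mouse 8 and G93A OKN-007 mice 13 and 14 of 90 days. The share of all genes called with these fewer mice is not reported here. A loss particular to the members therefore cannot be told from a general loss of calls. For Nefm in untreated mice the call was lost without WT mouse 4 of 90 days (adjusted p = 0.0711), G93A mouse 12 of 90 days (adjusted p = 0.109) or G93A mouse 11 of 155 days (adjusted p = 0.0579) in edgeR.

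Within WT mice Nefh and Ina were higher at the later age. In WT untreated mice Nefh rose from 1760, 2715, 1771 and 1232 CPM at 90 days to 3166, 2425, 2924 and 2534 CPM at 155 days, a log2 change of 0.56 (SE 0.20, adjusted p = 0.0383, edgeR), though the ages overlapped. Ina rose by 0.38 (SE 0.12, adjusted p = 0.0255) and its groups did not overlap. Nefl (0.41, adjusted p = 0.113), Nefm (0.17) and Prph (-0.13) did not pass. In WT mice given OKN-007 Nefh rose by 0.65 and Ina by 0.34, and Nefl, at 0.46, had an adjusted p of 0.0659 (edgeR). The caudal Hox score of these treated mice was -1.10 to 2.12 at 90 days and 3.71 to 4.05 at 155 days, without overlap. Score and age cannot be told apart there. Genes called higher were 15.3% of all in untreated and 17.8% in treated WT mice, beside 2 of 5 members in each. Leaving out 1 mouse at a time moved these counts between 0 and 3. For untreated WT mice 0 members were called without mouse 1, 3 or 4 at 90 days or mouse 1 or 3 at 155 days. For treated WT mice 0 were called without mouse 5 at 90 days, and 1 without mouse 6 or 8 at 155 days.

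In G93A mice 3 of 5 members passed the test as lower at the later age in untreated and 4 of 5 in treated mice. Prph measured 110.2, 99.4, 142 and 179 CPM in untreated G93A mice at 90 days against 70.6 to 90.5 CPM at 155 days, and fell by 0.68 (SE 0.15, adjusted p = 0.000640, edgeR). Nefm fell by 0.66 (SE 0.19, adjusted p = 0.00690) and Nefl by 0.61 (SE 0.19, adjusted p = 0.0131). Nefh (-0.49, adjusted p = 0.0594) and Ina (-0.27, adjusted p = 0.0954) did not pass. In treated G93A mice Prph fell by 0.88, Nefm by 0.79, Nefl by 0.65 and Ina by 0.35, and Nefh, at -0.51, had an adjusted p of 0.0513. Genes called lower were 12.8% of all among untreated G93A mice and 13.1% among treated ones. The untreated count of 3 members was 1 without mouse 12 of 90 days, the mouse with the highest levels, and 5 without mouse 12 of 155 days. Other lists moved with age too. Oligodendrocyte markers fell in 6 of 6 genes in both WT groups, from a summed mean of 36458 to 22360 CPM in untreated and from 40567 to 21373 CPM in treated mice. They fell in 5 of 6 genes in untreated and 6 of 6 in treated G93A mice. Of all 19829 genes tested, 1905 were called lower at the later age in untreated and 2679 in treated WT mice. Called higher were 4155 genes in untreated and 3931 in treated G93A mice. Schwann cell markers fell in 7 of 8 genes in untreated WT mice, whose group of 90 days holds the mouse of high sum, and in 0 of 8 in treated ones. Caudal Hox genes rose in 3 of 6 cases in treated WT mice and in 0 of 6 in untreated ones. Their score did not overlap between the ages in treated WT mice and overlapped in untreated WT mice and in G93A mice of either treatment. In G93A mice motor neuron markers fell in 9 of 11 genes under either treatment, microglia markers rose in 8 of 8 in untreated and 7 of 8 in treated mice, and astrocyte markers rose in 6 of 8 in each. The part of these lists in the changes with age was not tested.

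Mice of the ages were different animals, and whether they were sequenced together is not given in the sources used here, so age and run cannot be told apart.

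OKN-007 changed no member past the threshold at either age or in either genotype. In G93A mice at 155 days the log2 changes against untreated mice were -0.23 (95% interval -0.53 to 0.06) for Nefl, -0.22 (-0.52 to 0.07) for Nefm, -0.26 (-0.56 to 0.03) for Nefh and -0.20 (-0.47 to 0.07) for Ina. Prph, at 83.0, 88.1, 90.5 and 70.6 CPM untreated and 64.8, 62.7, 58.7 and 81.2 CPM treated, had a change of -0.30 (-0.52 to -0.08). The groups overlapped, through the lowest untreated and the highest treated mouse. Its unadjusted p in edgeR's test was 0.00919 and its adjusted p 0.9996. In WT mice at 155 days Prph had a change of 0.22 (SE 0.10, unadjusted p = 0.0498, edgeR) and the others lay between -0.10 and 0.05. The difference between these effects, the genotype by treatment interaction, was -0.52 for Prph (95% interval -0.83 to -0.21, unadjusted p = 0.00224, adjusted p = 0.9998, edgeR) and between -0.28 and -0.10 for the others.

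At 90 days the OKN-007 changes lay between -0.25 and -0.10 in G93A mice and between -0.08 and -0.02 in WT mice, and the interactions between -0.17 and -0.03. Of all genes, edgeR called 0% in each of the 4 OKN-007 comparisons and both interactions. DESeq2 called 2 genes for OKN-007 in WT mice at 155 days, 2 in the interaction at 155 days and 0 in the others. At an unadjusted p under 0.05 stood 755 genes in G93A and 549 in WT mice at 155 days, 1050 and 769 at 90 days, and 437 and 531 in the interactions. For the members, 1 of 5 (Prph) reached that level in each of the 3 tests at 155 days and 0 in the 3 at 90 days. DESeq2 called 0 members in all 6.

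Whether the members fell by unequal amounts was tested on log2 ratios within a mouse, which do not depend on scaling. In treated mice at 155 days the log2 ratio of Nefh to Ina differed between G93A and WT mice by -0.72 (SE 0.06), that of Nefl to Ina by -0.59 (SE 0.09) and that of Nefm to Ina by -0.56 (SE 0.08). Nefh also fell more than its partners. The difference of the ratio between G93A and WT mice was 0.13 (SE 0.04) for Nefl to Nefh, 0.17 (SE 0.03) for Nefm to Nefh and -0.42 (SE 0.15) for Nefh to Prph. Each of these 6 of 10 pairs had an exact two-sided permutation p of 0.0286, the smallest that 70 splits allow, and 0.0476 after adjustment over the 10 pairs. In untreated mice the differences were -0.54 (SE 0.09) for Nefh to Ina and -0.42 (SE 0.06) for Nefl to Ina, with the same exact permutation p of 0.0286 before and 0.122 after adjustment, and 0 of 10 pairs passed. In this design at least 6 of the 10 pairs must separate completely for any to pass. The pairs also share genes, and the counts of treated and untreated mice were not compared by a test. The treated count of 6 was 0 without WT mouse 8 or without any of the G93A mice 13 to 16, where 35 splits are left. The ratio of Nefl to Nefm, -0.07 in untreated and -0.03 in treated mice, rests on the pair of genes whose exons overlap.

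**Figure D3:**
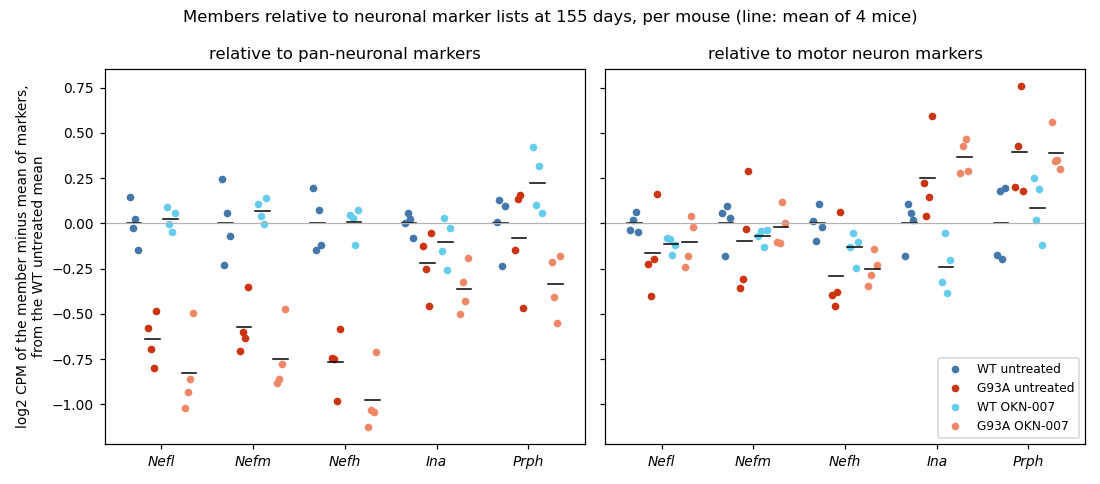
Log2 CPM of each member less the mean log2 CPM of a marker list, at 155 days, set to 0 at the WT untreated mean (y axis), for pan-neuronal markers (left) and motor neuron markers (right); points are mice and lines means of 4. Relative to pan-neuronal markers all G93A mice lie below all WT mice of the same treatment for Nefl, Nefm and Nefh, and relative to motor neuron markers all treated G93A mice lie above all treated WT mice for Ina and Prph.

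The members were also set against other neuronal transcripts. Relative to the mean of the 10 pan-neuronal markers, Nefh differed between G93A and WT untreated mice at 155 days by -0.77 (SE 0.12), Nefl by -0.64 (SE 0.09) and Nefm by -0.57 (SE 0.13) on the log2 scale. Each had an adjusted exact permutation p of 0.0476 over the 5 members, with no overlap of the groups. Ina, with a difference of -0.22 (exact permutation, adjusted p = 0.0714), and Prph, with -0.08 (adjusted p = 0.714), did not pass. In treated mice the differences were -0.98 for Nefh, -0.85 for Nefl, -0.82 for Nefm and -0.56 for Prph, each with an adjusted exact permutation p of 0.0357, and Ina, at -0.26, did not pass (adjusted p = 0.0571). The untreated count of 3 was 0 without WT mouse 1 or G93A mouse 9. With the 11 motor neuron markers as the reference, the differences were -0.29 for Nefh, -0.17 for Nefl, -0.10 for Nefm, 0.25 for Ina and 0.39 for Prph in untreated mice. In treated mice they were -0.12 for Nefh, 0.015 for Nefl, 0.048 for Nefm, 0.61 for Ina and 0.30 for Prph. The sign of Ina and Prph thus turned against this reference in either treatment, and that of Nefl and Nefm in treated mice only, at values near 0. In treated mice Ina and Prph each lay higher in all G93A than in all WT mice, with an adjusted exact permutation p of 0.0714, and 0 of 5 members passed in either treatment. In this design at least 3 of the 5 members must separate completely for any to pass.

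**Figure D4:**
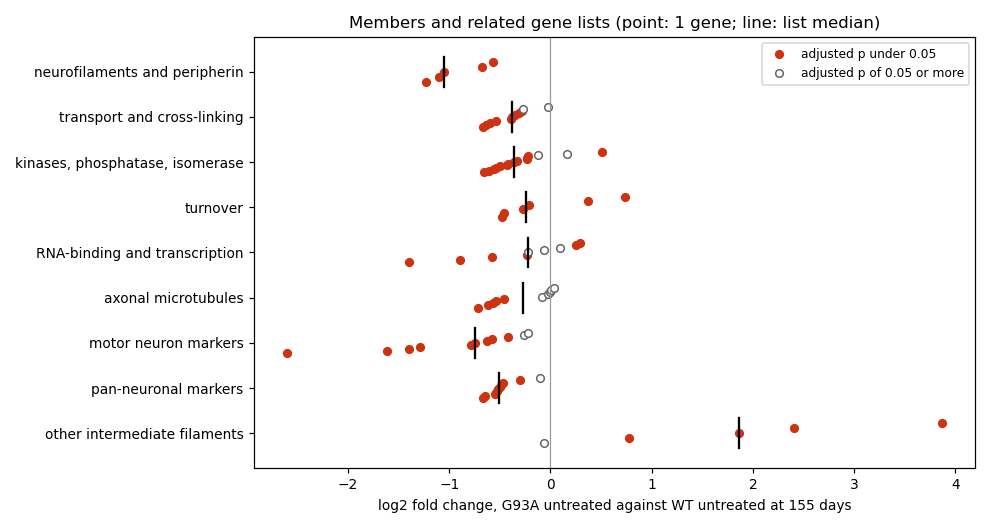
Log2 fold change of untreated G93A against WT mice at 155 days (x axis) for the members and 8 related gene lists (rows); each point is a gene, filled where the adjusted p was under 0.05, and the line is the list median. The members' median of -1.05 is lower than that of every other list shown, and the median of the other intermediate filaments, 1.87, lies above 0.

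Related genes moved in the same comparison, G93A against WT untreated mice at 155 days, where the median over all genes tested was 0.00015 on the log2 scale. Other intermediate filaments of nervous tissue went up. Vim, the vimentin of reactive glia, rose by 3.87 (SE 0.24) from 97.2 to 137 CPM in WT mice to 1044 to 2791 CPM, and Gfap, the astrocyte filament, rose by 2.40 (SE 0.11). Nes rose by 1.87 and Des by 0.77, while Synm had a value of -0.06 and did not pass, so that 4 of 5 rose. In mice given OKN-007 the same count was 4 of 5.

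Genes that carry or cross-link neurofilaments fell in 9 of 11 cases, with a median of -0.38. Kif5a, the neuronal kinesin heavy chain that moves neurofilaments outward, fell by 0.66 (SE 0.14), and its relative Kif5c by 0.64 (SE 0.13). The smallest falls that passed were those of Dync1h1, the dynein heavy chain, by 0.28 and of Plec, the linker plectin, by 0.31. Among 15 genes that act on the phosphorylation of the tails, mostly kinases and phosphatase subunits, 12 fell, with a median of -0.36. Cdk5r2, an activator of Cdk5, fell by 0.66 and Ppp2r2b, a regulatory subunit of PP2A, by 0.61. Ppp2r1a, its scaffold subunit, fell by 0.22.

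Turnover genes went both ways, and 4 of 6 fell. Capn2, the calpain that cleaves neurofilament proteins, rose by 0.73 (SE 0.10). Trim2, a ubiquitin ligase that binds the light chain, fell by 0.48 and Uchl1 by 0.46. Of 9 RNA-binding and transcriptional regulators, 4 fell and 2 rose. Isl2 and Pou4f1, transcription factors of motor and sensory neurons, fell by 1.40 and 0.89, Sp1 rose by 0.29 and Ewsr1 by 0.25, and Tardbp, whose product TDP-43 binds the light chain mRNA, had a value of -0.06 and did not pass. Axonal microtubule genes fell in 5 of 10 cases, led by Tuba4a, by 0.72, and Map1a, by 0.62, with Stmn2 at -0.57 and Tubb3 at -0.46. Mapt, the gene of tau, had a value of -0.00038 and did not pass.

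Motor neuron markers had a median of -0.74. Chodl, a marker of fast motor neurons, fell by 2.60 (SE 0.19), from 19.9 to 35.3 CPM in WT mice to 3.17 to 4.59 CPM, and Mmp9 fell by 1.61. Chat, the acetylcholine synthesising enzyme, fell by 0.41, the least of those that passed, and Calca by 0.58. The median of the pan-neuronal markers was -0.51, with Snap25 at -0.66 and Eno2 at -0.65 the lowest. Celf4 and Map2, by 0.30 and 0.47, fell the least of those that passed. At 90 days no gene of these lists passed the threshold in either genotype comparison.

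**Figure D5:**
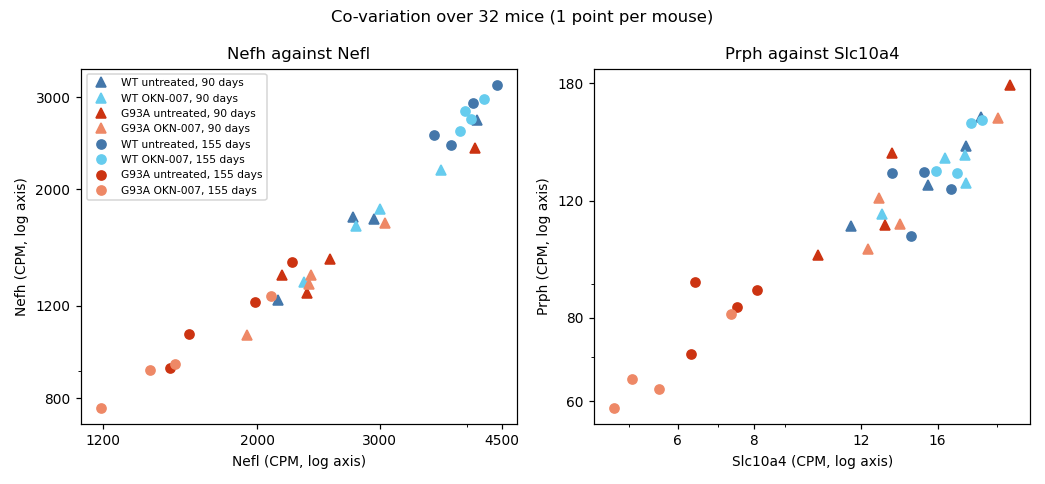
Left, Nefh against Nefl, and right, Prph against Slc10a4, each in CPM on log axes with 1 point per mouse (triangles 90 days, circles 155 days). Nefh follows Nefl closely (r = 0.983 over 32 mice), and Prph follows Slc10a4 (r = 0.961).

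Across the 32 mice the large subunits varied together. These correlations describe points that share libraries, scaling and the groups, and carry no test. Pearson's r of log2 CPM was 0.983 for Nefl with Nefh, 0.970 for Nefl with Nefm, 0.944 for Nefl with Ina, 0.820 for Nefl with Prph and 0.663 for Ina with Prph. For deviations from the 8 group means, which leave out the differences between groups, r was 0.977 for Nefl with Nefh and 0.929 for Nefl with Nefm, but 0.172 for Ina with Prph. Ina had an r of 0.823 with Nefh, 0.815 with Nefl and 0.692 with Nefm on this measure. For Prph, r was 0.596 with Nefl, 0.573 with Nefm and 0.521 with Nefh. Mice with high Nefl within a group thus tended to have high Nefh, Nefm and Ina, and less closely high Prph. Ina and Prph varied with little relation to each other.

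Among 19829 genes the 5 most like Nefl by log2 CPM were Nefh, Stmn2 (r = 0.981), Ccdc92, Nefm and Pcyt1b. Those most like Nefm were Nefl, Pcyt1b (r = 0.966), Nkiras1, Ankrd35 and Kctd9, and those most like Nefh were Nefl, Slc35f3 (r = 0.969), Rimkla, Lrrc49 and Cds1. Ina was closest to Nat8l (r = 0.976), the enzyme that makes N-acetylaspartate, followed by Tmem150c, Mapk10, Panx2 and Rimkla. Prph was closest to Slc10a4 (r = 0.961), a vesicular transporter of cholinergic and monoaminergic neurons, followed by Palm3, Kcnj14, Grin3b and Chat (r = 0.913). No other member was among the 5 genes nearest to Ina or to Prph.

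Within groups the neighbours changed in part. Nefl remained closest to Nefh, followed by Dffa, Lrrc49, Ppm1a and Ccdc91, and Nefm to Nefl, Nefh, Fxr2, Cab39 and Napg. After Nefl, those of Nefh were Dffa, Slc7a14, Rgs4 and Ttbk2. Ina was nearest to Slc6a11 (r = 0.951), a GABA transporter, and then Atcay, Hapln4, Kcnc1 and Atp2b2. Prph kept Slc10a4 (r = 0.855), Palm3, Kcnj14 and Chat (r = 0.763) among its 5 nearest, with Taf7 in place of Grin3b.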

How the data were processed

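Spinal cord RNA from 32 mice (25 mg of tissue, TRIzol, TruSeq Stranded mRNA, NextSeq 500) was available as whole-number counts per gene that the authors deposited without normalization. The study's methods name Trimmomatic, STAR, HTSeq and GENCODE M10 on GRCm38, whereas the submitters' processing notes list STAR, featureCounts, edgeR, hg38 and GRCm39. The table holds 1306 IDs newer than any of GENCODE M21, so it cannot come from M10 alone. Symbols, positions and lengths were taken from GENCODE M21, which named 41218 genes (96.9%).

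Counts were analysed with edgeR 4.0.16 in R 4.3.3 (filterByExpr, TMM, glmQLFit, glmQLFTest, two-sided, Benjamini-Hochberg over all genes tested, threshold 0.05). The 16 mice of an age were fitted as 4 groups, and comparisons between ages used all 32 mice as 8 groups. CPM divides by library size times the TMM factor, and log2 CPM used a prior count of 2. Ratios within a mouse and members relative to marker lists were tested by exact permutation of 4 against 4 mice (70 splits, two-sided), adjusted over 10 pairs or 5 members. The smallest library of 19701722 counts sets a floor of 0.152 CPM for 3 counts, which covers counting error only. The labels number 4 replicates per group without stating that each is a separate mouse, as is taken here, so p-values measure the spread between these samples.

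Alternatives were DESeq2 1.42.0, RLE factors, no filter, at least 10 counts in every mouse, the caudal Hox score as a covariate, all mice or only the compared groups in the fit, a replicate block, other prior counts and leaving out each mouse. Library size alone, leaving out mice with a caudal Hox score under 0, and dividing by all annotated exons were chosen after seeing the data. The fits were tested on simulated data with known changes. The members and gene lists were chosen with earlier results of these data known. The genes named are the members, the 2 highest and 2 lowest log2 fold changes past the threshold of each list in untreated mice at 155 days, and the 5 genes most like each member. Synm, Tardbp, Tubb3, Stmn2 and Mapt of the lists, and the sensory and Schwann cell markers given as low or as peripheral signs, were named after their values were seen. Values of a few single genes of the lists are not reported here, and the human SOD1 transgene was not analysed here.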

Additional observations from a re-analysis of the deposited data

Results flagged for a closer look

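Among 40 sets of 4 mice (5 members in 8 groups), 2 held a mouse far from the others by Dixon's test at the 95% level, which is the number that chance gives at 1 in 20. Ina measured 226 CPM in mouse 5 of the WT OKN-007 group at 90 days, against 299 CPM in the nearest mouse. Nefm measured 5678 CPM in mouse 8 of the WT OKN-007 group at 155 days, against 5194 CPM in the nearest.

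The change between G93A and WT mice differed between the ages by the interaction test of edgeR. In untreated mice the difference, 155 less 90 days, was -1.05 for Nefh, -1.02 for Nefl, -0.83 for Nefm and -0.64 for Ina on the log2 scale. In mice given OKN-007 it was -1.16 for Nefh, -1.11 for Nefl, -1.09 for Nefm, -1.04 for Prph and -0.69 for Ina. All of the untreated and most of the treated calls were lost without mice of a caudal Hox score under 0, a setting that leaves fewer mice in the fit. Age and run cannot be told apart.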

How the results depend on the processing

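All 170 alternative values of the members in G93A against WT mice at 155 days kept their direction and their side of the threshold. Leaving out 1 mouse at a time, the untreated log2 changes ranged from -1.36 to -1.13 for Nefh, -1.22 to -1.02 for Nefl, -1.19 to -0.95 for Nefm, -0.80 to -0.57 for Ina and -0.63 to -0.49 for Prph. For the other values, the cause of a change with the setting was not tested unless stated. The members' lowest CPM lay far above the floor of 0.152 CPM. Divided by all annotated exons in place of the principal transcript, the mean log2 ratio of Nefm to Nefl per kilobase turned from 0.48 to -0.31, by the longer length of Nefm.

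The replicate numbers did not pair the mice. Correlations of same-numbered mice in their deviations from group means ran from -0.215 to 0.134 over 16 pairs, with 2 over 0.1, and 3 of 16 mice at 155 days correlated best with their own number. With the replicate block the members called were 4 and 5 in the genotype by age interactions, as without it. In 155 against 90 days the replicate block gave 3 in place of 2 in untreated and in treated WT mice, 5 in place of 3 in untreated and 5 in place of 4 in treated G93A mice.

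Without mice of a caudal Hox score under 0, a setting chosen after seeing the data that leaves fewer mice, 0 members were called in the untreated and 1 in the treated genotype by age interaction. In 155 against 90 days the same setting called 0 in untreated WT mice, 1 among untreated G93A mice and 1 among treated ones. The Hox covariate left 1 in treated WT mice, and at least 10 counts in every mouse gave 5 in untreated G93A mice. Prph in the untreated interaction by age passed with DESeq2 (adjusted p = 0.0325), RLE factors (0.0450), at least 10 counts (0.0370), the Hox covariate (0.0460) and library size alone (0.0364). Leaving out 1 mouse gave counts of 0 to 3 in untreated WT, 0 to 3 in treated WT and 1 to 5 in untreated G93A mice for 155 against 90 days. It gave 0 to 6 passed ratios in treated mice and 0 to 4 members relative to pan-neuronal markers in untreated mice. In these permutation tests fewer splits are left by construction.

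Relative to motor neuron markers, 0 members passed in untreated and 0 in treated mice. The sign turned for Ina (0.25) and Prph (0.39) in untreated mice and for Nefl (0.015), Nefm (0.048), Ina (0.61) and Prph (0.30) in treated mice. The other reversals were of values near 0 that passed no test. For OKN-007 in WT mice at 155 days, Nefh was 0.0043 with no filter, 0.0099 with at least 10 counts, 0.0069 with all 32 mice, 0.0097 with only the compared groups, 0.025 with library size alone and 0.0071 without low Hox scores, and Nefl was -0.013 with the Hox covariate. The Nefm interaction with treatment at 90 days was 0.0054 with no filter. Leaving out 1 mouse, the ranges that crossed 0 were -0.012 to 0.073 for Nefl, -0.0094 to 0.15 for Nefm and -0.043 to 0.072 for Nefh with OKN-007 in WT mice at 155 days, and -0.21 to 0.020 for the Ina interaction with treatment at 155 days. For G93A against WT at 90 days they were -0.33 to 0.083 for Nefl, -0.43 to 0.023 for Nefh and -0.20 to 0.081 for Prph in untreated mice, and -0.22 to 0.0023 for Prph in treated mice. For OKN-007 in G93A mice at 90 days they were -0.32 to 0.040 for Nefl, -0.23 to 0.16 for Nefm and -0.25 to 0.066 for Prph. In WT mice at 90 days they were -0.14 to 0.16 for Nefl, -0.17 to 0.098 for Nefm, -0.23 to 0.14 for Nefh, -0.10 to 0.041 for Ina and -0.14 to 0.022 for Prph. For the interaction with treatment at 90 days they were -0.35 to 0.060 for Nefl, -0.19 to 0.23 for Nefm, -0.38 to 0.071 for Nefh, -0.16 to 0.013 for Ina and -0.19 to 0.12 for Prph. In untreated mice at 155 days they were -0.13 to 0.0026 for the ratio of Nefl to Nefm, -0.33 to 0.017 for that of Ina to Prph and -0.16 to 0.048 for Prph relative to pan-neuronal markers.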
